A study of Mus musculus with 23 samples.

Results

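Sphingolipid and galactolipid metabolism was followed in mouse sciatic nerves (SNs) through 36 genes, of 43068 genes listed for the crush experiment and 22880 listed for the inducible mutants. The genes were taken from a fixed list of symbols, matched to the deposited gene identifiers, and split into 21 genes of synthesis, 12 of breakdown and 3 lipid kinases. The synthesis genes comprised 13 of the de novo pathway, 3 ORMDL regulators and 5 enzymes that place a head group on ceramide. Total RNA of whole SNs was sequenced in 23 libraries of 7 groups. In the crush experiment, adult male wild-type C57BL/6J mice provided SN tissue distal to a crush at 3 days post crush (3 dpc, n = 4), the contralateral SN of crushed animals (n = 4) and uncrushed SNs of surgery controls (n = 3). In the inducible mutants, mice homozygous for a floxed allele of Dicer1 (the RNase that cuts precursor miRNAs) or Dgcr8 (the RNA-binding partner of Drosha in the microprocessor) carried P0-CreERT2, a tamoxifen-activated Cre that acts in myelinating Schwann cells (SCs). Dicer iKO and Dgcr8 iKO SNs were taken 3 months post tamoxifen (3 mpT, n = 3 each), and each line had its own control group of 3 Cre-negative mice with the same floxed alleles and the same tamoxifen. The mutant animals were of either sex, and all samples carry the strain label C57bl6. Not every induced mutant was affected, and the study used affected mice that were chosen by morphology, so that the mutant libraries stand for affected animals.

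Sphingolipids start from serine and palmitoyl-CoA, which serine palmitoyltransferase joins. The product is reduced, acylated by a ceramide synthase and desaturated to ceramide, and ceramide then receives galactose, glucose or phosphocholine. Myelin is rich in galactosylceramide and its sulphated form sulphatide, many of them with a 2-hydroxylated fatty acid, and myelinating SCs make large amounts of both. Breakdown runs in the reverse order in lysosomes, where sugars are removed with the help of small activator proteins, and ends with sphingosine, which is phosphorylated and cleaved.

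Library totals were 6617716 to 12806066 counts in the crush experiment and 5594859 to 10143244 in the inducible mutants, so that 3 counts corresponded to 0.234 to 0.453 CPM (counts per 1e6 counts of the library) and to 0.296 to 0.536 CPM, respectively. The list of 10 myelinating SC markers (Mbp and Mag among them) was detected in every group. Its summed level was 1240 to 1910 CPM in crushed SNs against 44400 to 47100 in uncrushed and 45900 to 59700 in contralateral SNs, and all 10 markers were downregulated. The 12 macrophage markers summed to 843 to 1920 CPM in crushed SNs against 175 to 210 and 128 to 239, and all 12 were upregulated. In the mutants the macrophage sum was 4260 to 7730 CPM in Dicer iKO against 385 to 1290 in its controls, and 2880 to 6970 in Dgcr8 iKO against 385 to 456. The myelinating SC sum was 24600 to 31700 against 32600 to 54500 for Dicer iKO and 15400 to 30300 against 50100 to 52700 for Dgcr8 iKO. The 3 Dicer controls were spread widely on the 6 fibroblast markers, from 3790 to 11300 CPM. In bulk SN tissue, fewer cells of a type and less RNA per cell cannot be told apart, and the part of cell composition in the results below was not tested. Whole-gene counts did not check the deletions: Dicer1 was at 81.3 to 82.1 CPM in Dicer iKO and 87.4 to 90.5 in controls (adjusted p = 0.356), and Dgcr8 at 39.4 to 54 CPM in Dgcr8 iKO and 35.4 to 41.8 in controls (adjusted p = 0.233).

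At 3 dpc the genes that make myelin galactolipids were downregulated, and a group of breakdown genes, lipid kinases and glucosylceramide synthase was upregulated. A gene was called when it differed by at least 2-fold with an edgeR adjusted p of at most 0.05. Against uncrushed SNs, 35 members could be tested, of which 8 were called higher and 7 lower, where 15.3% and 21.1% of all 17477 genes tested were called. With the adjusted p alone, 14 members were higher and 12 lower, against 33.7% and 33.3% of all genes. By either limit, the share of members lower against uncrushed SNs was near that of all genes. Against contralateral SNs, 8 of 35 were called higher and 9 lower (background 14.6% and 13.6% of 16667 genes), and 14 and 15 passed the adjusted p alone (background 33.5% and 32.9%). The same 8 genes were higher against both controls (Cers6, Ormdl1, Ugcg, Psap, Sgpl1, Hexa, Sphk1 and Cerk), and 7 were lower against both (Sptlc2, Cers1, Cers4, Degs2, Fa2h, Ugt8a and Gal3st1). Of all 16556 genes tested against both, 13.3% were called higher and 11.3% lower against both. Both crush comparisons share the crushed libraries. Between contralateral and uncrushed SNs no member was called with edgeR, where 0% of 17722 genes were called in either direction by either limit. There, 2 members (Degs1 and Smpd3) had an unadjusted p under 0.05. DESeq2 called 0 members and 31 of all genes.

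The members' shift was described by role, and a difference between roles was not tested. Against uncrushed SNs, the median log2 fold change was -0.70 over the 20 synthesis genes tested, -0.95 over 12 de novo genes and 0.29 over 12 breakdown genes, beside -0.032 over all genes (quartiles -0.89 and 0.64). Synthesis genes moved both ways, with 8 changes above 0 and 12 below, as did breakdown genes with 7 above and 5 below. Against contralateral SNs these medians were -0.64, -1.07 and 0.33, beside -0.059 (quartiles -0.62 and 0.56). On the length-corrected TPM scale, set to the same total over protein-coding genes in every library, the de novo and head group enzymes summed to 613 to 667 TPM in crushed SNs, below 1750 to 2140 in uncrushed and 2030 to 2570 in contralateral SNs. The breakdown genes summed to 1330 to 1900 TPM in crushed SNs, above 609 to 706 and 690 to 821. Psap alone made up 59.7% to 63% of the breakdown sum in crushed SNs, 50.6% to 52.7% in uncrushed and 50.3% to 53.5% in contralateral SNs. Without Psap the breakdown genes still summed higher in crushed SNs, at 524 to 704 TPM against at most 349 in uncrushed and 382 in contralateral SNs. Synthesis lay above breakdown in every uncrushed and contralateral library with or without Psap. In the crushed libraries it lay below the sum with Psap and overlapped the sum without it.

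**Figure D1:**
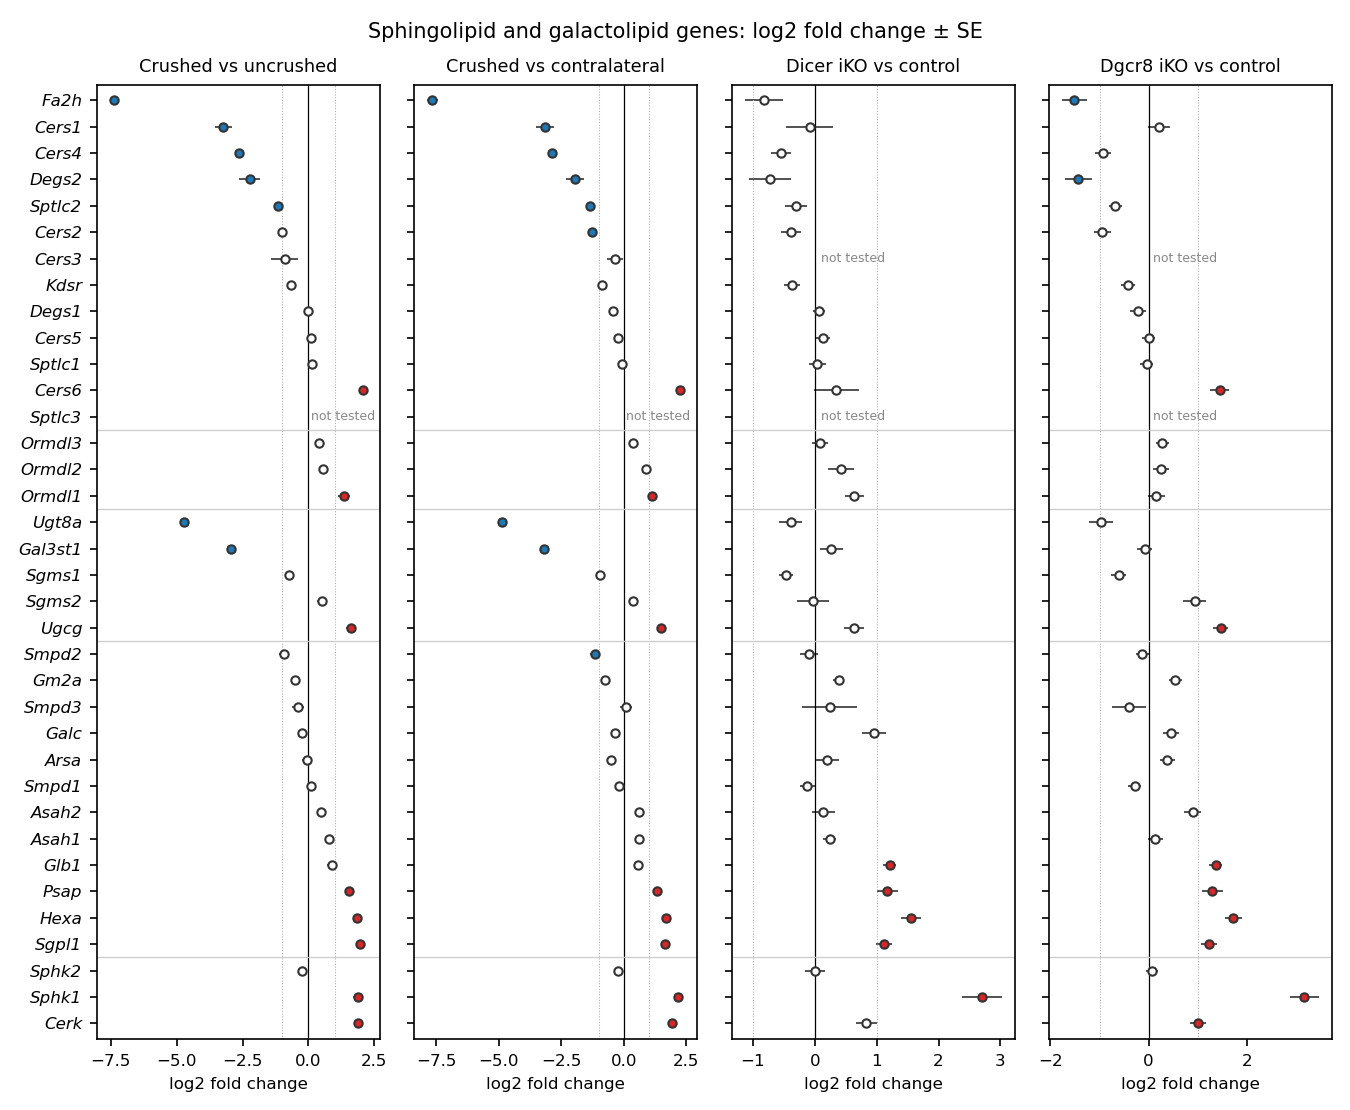
Log2 fold change (x axis, bars are ± 1 SE) of the members (y axis, by role) in each comparison, with red points called higher, blue points called lower, open points not called, and dotted lines at 2-fold. Each panel has its own x scale. Fa2h (-7.36 against uncrushed SNs) and Ugt8a (-4.71) lie far to the left in the crush panels, and Sphk1 lies to the right of 0 in all 4 tested effects.

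Among the enzymes of the first steps, Sptlc2, a catalytic subunit of serine palmitoyltransferase, was at 168, 202 and 185 CPM in uncrushed SNs, at 195, 223, 208 and 177 in contralateral SNs, and at 73.2, 82, 81.9 and 70.6 in crushed SNs. All crushed libraries lay below all controls, and the change was 2.23-fold against uncrushed SNs (log2 fold change -1.16 ± 0.10 (SE), adjusted p = 5.1e-07). The Sptlc2 call depended on the scale: its change was -0.93 without a filter on low counts, -0.67 with limma on TPM of protein-coding genes, and 0.14 on the deposited TPM, on which the median of all genes was at 0.72. Its partner subunit Sptlc1 did not pass the test (0.15 ± 0.12, adjusted p = 0.288). Sptlc3, an alternative catalytic subunit, had 0 to 7 counts per crush-experiment library and 0 in all 12 mutant and control libraries, and was not tested. Kdsr, the reductase of the next step, fell by less than 2-fold against both controls (-0.67 ± 0.12 and -0.87 ± 0.09).

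Fa2h, the fatty acid 2-hydroxylase that supplies the hydroxylated acyl chains of myelin lipids, showed the widest gap of all members. It was at 291, 294 and 303 CPM in uncrushed and at 271, 422, 357 and 313 CPM in contralateral SNs. The crushed SNs had 2.49, 1.38, 1.65 and 1.04 CPM, resting on 31, 17, 18 and 11 counts. The change was 165-fold against uncrushed SNs (-7.36 ± 0.18, adjusted p = 4.9e-11) and 202-fold against contralateral SNs (-7.66 ± 0.21, adjusted p = 1.32e-12). Degs2, a desaturase that can also hydroxylate, was a low-abundance gene, at 1.88 to 2.97 CPM in uncrushed, 1.44 to 2.43 in contralateral and 0.641, 0.326, 0.732 and 0.188 CPM in crushed SNs. It was lower by 4.7-fold against uncrushed SNs (-2.23 ± 0.41, adjusted p = 0.000432), on 2 to 8 counts per crushed library, and its locus overlaps Evl. Degs1, the main ceramide desaturase, changed only against contralateral SNs and by less than 2-fold (-0.41 ± 0.10, adjusted p = 0.00195, and -0.02 ± 0.10 against uncrushed SNs).

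The ceramide synthases, which attach acyl chains of different length, moved in opposite directions. Cers4 was at 153, 152 and 141 CPM in uncrushed and 154, 184, 163 and 161 in contralateral SNs, but at 23.7, 20.6, 23.2 and 21.3 CPM in crushed SNs. It was lower by 6.22-fold against uncrushed (-2.64 ± 0.10, adjusted p = 6.28e-10) and 7.39-fold against contralateral SNs. Cers6, which makes ceramides with shorter chains, rose from 6.75, 5.26 and 8.03 CPM in uncrushed and 6.98, 4.16, 4.11 and 6.57 in contralateral SNs to 23.4, 28.4, 24.7 and 26.8 CPM, with no overlap (2.07 ± 0.14, adjusted p = 1.15e-07, and 2.27 ± 0.15, adjusted p = 8.65e-09). With limma on the deposited TPM it was just under 2-fold against uncrushed SNs (0.98). Cers1 was at 4.76 to 5.94 CPM in uncrushed, 3.11 to 6.67 in contralateral and 0.882, 0.407, 0.366 and 0.377 CPM in crushed SNs (-3.23 ± 0.32, adjusted p = 2.64e-06). Cers1 overlaps Gdf1 on the same strand, so that its counts are uncertain.

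Cers2, which makes the very long chain ceramides of myelin, was at 239 to 264 CPM in uncrushed, 260 to 346 in contralateral and 100 to 130 in crushed SNs. It was called against contralateral SNs (-1.26 ± 0.11, adjusted p = 1.55e-07) and missed the 2-fold limit by little against uncrushed SNs (1.99-fold, adjusted p = 3.16e-06), which it passed without crushed replicate 1, 2 or 3. Cers5 (0.08 ± 0.12 against uncrushed SNs) and the barely expressed Cers3 (-0.90 ± 0.51) did not pass the test. As shares of the summed ceramide synthase TPM, Cers2 made up 72.8% ± 0.744 (SD, n = 3) in uncrushed, 73.9% ± 1.3 (n = 4) in contralateral and 71.6% ± 2.57 (n = 4) in crushed SNs. The share of Cers4 fell from 18.5% ± 0.429 and 17.9% ± 0.931 to 5.96% ± 0.439, that of Cers6 went from 1.74% ± 0.327 and 1.51% ± 0.568 to 10.5% ± 1.41, and that of Cers5 from 5.39% ± 0.285 and 5.48% ± 0.152 to 11.4% ± 0.689. The crushed libraries did not overlap either control group in any of these 3 shares. These are shares of a smaller total, which was 211 to 250 TPM in crushed SNs against 426 to 490 in uncrushed and 489 to 639 in contralateral SNs.

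**Figure D2:**
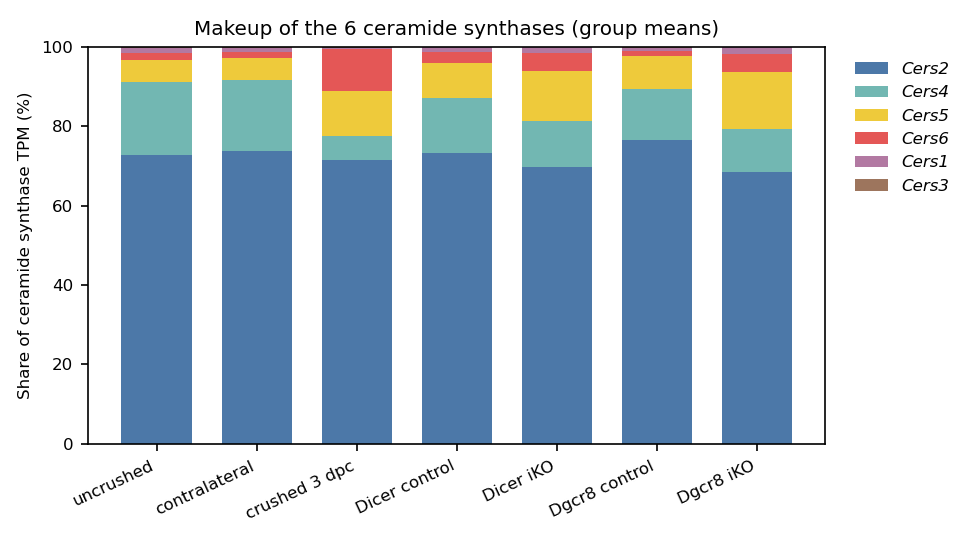
Mean share of each ceramide synthase gene (y axis, percent of the summed TPM of the 6 genes) in each of the 7 groups (x axis), with 3 or 4 libraries per group. Cers2 stayed at 71.6% in crushed SNs, while the Cers4 part shrank to 5.96% and the Cers6 part reached 10.5%.

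The ORMDL proteins restrain serine palmitoyltransferase. Ormdl1 was at 2.7, 4.76 and 5.13 CPM in uncrushed, 4.24, 3.77, 5.52 and 4.1 in contralateral and 7.14, 11.7, 9.7 and 9.52 CPM in crushed SNs. It was upregulated by 2.52-fold (1.34 ± 0.23, adjusted p = 0.000323) and 2.19-fold (1.13 ± 0.17, adjusted p = 3.76e-05), and a predicted gene on the same strand overlaps it. Ormdl2 (0.55 ± 0.16 and 0.90 ± 0.15) and Ormdl3 (0.42 ± 0.17 and 0.38 ± 0.12) rose by less than 2-fold against both controls, so that all 3 regulators were higher at the adjusted p alone.

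Of the head group enzymes, those of the galactose branch fell and that of the glucose branch rose. Ugt8a, which joins galactose to ceramide, was at 750, 981 and 941 CPM in uncrushed and 923, 1050, 943 and 846 in contralateral SNs. It was at 32.1, 34.3, 32.2 and 27.8 CPM in crushed SNs, which is 26.1-fold (-4.71 ± 0.12, adjusted p = 1.04e-10) and 29.4-fold lower (-4.88 ± 0.11, adjusted p = 3.23e-13). Gal3st1, which sulphates galactosylceramide to sulphatide, went from 38.3, 37.7 and 30.9 CPM in uncrushed and 39.3, 47.2, 39.3 and 34.6 in contralateral SNs to 5.61, 4.15, 4.03 and 3.67 CPM (-2.92 ± 0.15, adjusted p = 1.05e-08, and -3.18 ± 0.15, adjusted p = 1.66e-10). Ugcg, which joins glucose to ceramide as the first step towards gangliosides, rose from 8.72, 7.51 and 9.06 CPM and 8.87, 9.81, 7.63 and 7.59 CPM to 18.9, 30.8, 22.2 and 23.5 CPM. The change was 3.04-fold (1.61 ± 0.17, adjusted p = 4.13e-06) and 2.82-fold (1.50 ± 0.15, adjusted p = 5.73e-07), with no overlap between groups. The sphingomyelin synthases were split below the 2-fold limit, with Sgms1 lower (-0.73 ± 0.10 and -0.95 ± 0.08) and Sgms2 higher (0.50 ± 0.16 and 0.37 ± 0.15).

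**Figure D3:**
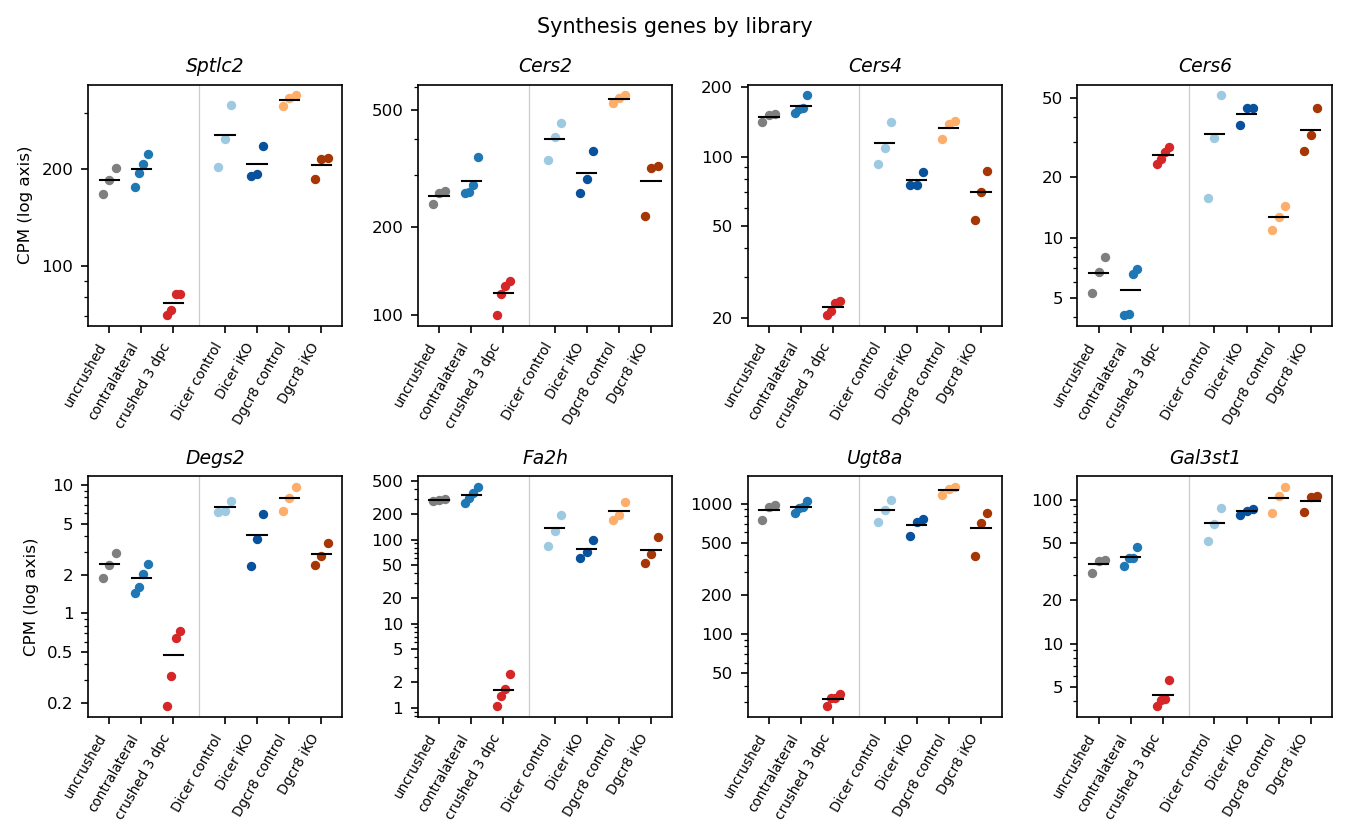
CPM (y axes, log scale) of synthesis genes in each library (points) of the 7 groups (x axes), with the group mean as a line. Fa2h, Ugt8a, Gal3st1 and Cers4 sit lowest in the crushed group, while crushed Cers6 (23.4 to 28.4 CPM) lies above its controls. Levels were not compared between the crush and mutant libraries, whose kit names differ in the labels.

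The promoters of 33 members were found in the RefSeq table for GRCm38.p6 (250 bases before to 50 after a start site) and searched on both strands for 4 short motifs. These were the E-box CACGTG, bound by TFEB and related factors at lysosomal genes, the EGR elements GCGGGGGCG and GCGTGGGCG, of the type bound by the myelination factor Egr2, and ACAAAG, a core of SOX sites. The E-box was in a promoter of 8 of the 33 members against 7.15% of 32817 promoters, GCGGGGGCG in 1 against 2.91%, GCGTGGGCG in 1 against 0.612%, and ACAAAG in 5 against 18.7%. Members with several start sites had more than 1 window in which a motif could be found. Fa2h, Asah1 and Smpd3 had no entry. The members with the E-box moved in both directions at the adjusted p: Cers6, Sphk1, Glb1 and Sgms2 were higher against both crush controls, Cers2 and Smpd2 were lower against both, and Arsa and Degs1 were lower against contralateral SNs. Windows are shown for Ugt8a and Gal3st1 of the galactose branch, which fell, and for Cers6 and Glb1, which rose. The capitals mark the motifs, GCGGGGGCG in Gal3st1 at -133 from the start site, GCGTGGGCG at -97 and CACGTG at -22 in Cers6, and CACGTG at -48 in Glb1. None of the 4 motifs was in the Ugt8a window. A match is a description of letters, and binding was not measured.
Ugt8a, chr3:125938603-125938902, minus strand: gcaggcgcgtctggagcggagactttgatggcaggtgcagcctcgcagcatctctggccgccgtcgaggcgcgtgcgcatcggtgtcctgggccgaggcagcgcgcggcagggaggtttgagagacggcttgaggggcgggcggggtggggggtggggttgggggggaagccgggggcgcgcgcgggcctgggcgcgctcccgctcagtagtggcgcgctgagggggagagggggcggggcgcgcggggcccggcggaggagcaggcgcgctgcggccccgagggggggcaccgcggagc
Gal3st1, chr11:3983386-3983685, plus strand: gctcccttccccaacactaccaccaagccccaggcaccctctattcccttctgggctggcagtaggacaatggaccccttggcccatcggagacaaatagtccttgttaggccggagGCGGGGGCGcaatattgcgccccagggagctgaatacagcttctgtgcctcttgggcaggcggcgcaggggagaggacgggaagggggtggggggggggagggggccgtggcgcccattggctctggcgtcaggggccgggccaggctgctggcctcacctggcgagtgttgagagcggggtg
Cers6, chr2:68861191-68861490, plus strand: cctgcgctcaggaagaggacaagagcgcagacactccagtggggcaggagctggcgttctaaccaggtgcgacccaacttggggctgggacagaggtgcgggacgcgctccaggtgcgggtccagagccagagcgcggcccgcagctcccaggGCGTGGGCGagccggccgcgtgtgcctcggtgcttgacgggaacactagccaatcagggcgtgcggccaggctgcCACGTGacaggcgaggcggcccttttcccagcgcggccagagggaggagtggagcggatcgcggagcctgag
Glb1, chr9:114400828-114401127, plus strand: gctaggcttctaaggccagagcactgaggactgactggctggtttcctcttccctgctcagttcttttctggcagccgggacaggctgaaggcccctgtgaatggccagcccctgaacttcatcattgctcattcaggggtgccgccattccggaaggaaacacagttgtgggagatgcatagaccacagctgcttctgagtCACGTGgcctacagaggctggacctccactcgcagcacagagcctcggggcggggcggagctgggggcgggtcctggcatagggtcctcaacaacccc

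Breakdown genes were upregulated in part. Psap, the precursor of the saposins that present lipids to lysosomal hydrolases, was at 324, 353 and 359 CPM in uncrushed, 336, 430, 381 and 342 in contralateral and 744, 1160, 980 and 819 CPM in crushed SNs. It rose by 2.88-fold (1.53 ± 0.14, adjusted p = 1.54e-06) and 2.5-fold (1.32 ± 0.13, adjusted p = 3.95e-07). Hexa, the alpha subunit of the hexosaminidase that degrades ganglioside GM2, rose from 34, 32.9 and 29.9 CPM and 32.5, 35.9, 34 and 33.4 CPM to 85.3, 129, 114 and 103 CPM (1.84 ± 0.13, adjusted p = 1.87e-07, and 1.68 ± 0.11, adjusted p = 4.53e-09). Sgpl1, the lyase that irreversibly cleaves sphingosine 1-phosphate, rose from 28.1, 34.8 and 29.6 CPM and 34.5, 36.4, 36.9 and 33.5 CPM to 96.8, 132, 112 and 100 CPM (1.94 ± 0.12, adjusted p = 5.89e-08, and 1.65 ± 0.09, adjusted p = 1.16e-09). For each of these 3 genes, every crushed library lay above every control.

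Glb1, a lysosomal beta-galactosidase, rose by less than 2-fold after crush, from 8, 8.39 and 6.84 CPM in uncrushed and 9.24, 9.42, 9.73 and 8.72 in contralateral SNs to 11.4, 18.8, 13.1 and 11.4 CPM (0.91 ± 0.19, adjusted p = 0.00106). The ceramidases Asah1 (0.77 ± 0.10) and Asah2 (0.49 ± 0.16) also rose by less than 2-fold. The enzymes that degrade the galactolipids themselves did not rise: Galc, which removes galactose from galactosylceramide, had -0.23 ± 0.12 against uncrushed SNs (adjusted p = 0.112) and fell against contralateral SNs (-0.36 ± 0.12, adjusted p = 0.015), as did Arsa, which removes sulphate from sulphatide (-0.51 ± 0.15, adjusted p = 0.00719). Gm2a, the GM2 activator, fell by less than 2-fold (-0.52 ± 0.14 and -0.76 ± 0.12), and the sphingomyelinase Smpd2 was called lower against contralateral SNs only (-1.16 ± 0.20, adjusted p = 0.00015, and -0.93 ± 0.19 against uncrushed SNs). Smpd2 ranged from 3.29 to 5.05 CPM in crushed, 6.7 to 11.5 in contralateral and 7.35 to 9.26 in uncrushed SNs, and its call was lost (under 2-fold) without contralateral replicate 2. The sphingomyelinases Smpd1 and Smpd3 did not pass the test in any comparison.

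Both crush-induced kinases phosphorylate a free sphingolipid. Sphk1, which makes sphingosine 1-phosphate, was at 3.06, 2.63 and 2.73 CPM in uncrushed, 2.45, 2.43, 1.5 and 2.36 in contralateral and 10.7, 8.95, 9.52 and 10.1 CPM in crushed SNs (1.89 ± 0.18, adjusted p = 1.54e-06, and 2.17 ± 0.17, adjusted p = 5.15e-08). Cerk, the ceramide kinase, went from 39.8, 36.6 and 34.5 CPM and 33.1, 32.9, 35 and 33.5 CPM to 142, 126, 132 and 111 CPM (1.89 ± 0.11, adjusted p = 2.75e-08, and 1.94 ± 0.08, adjusted p = 5.6e-11). Sphk2, the second sphingosine kinase, did not pass the test (-0.25 ± 0.14, adjusted p = 0.136).

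**Figure D4:**
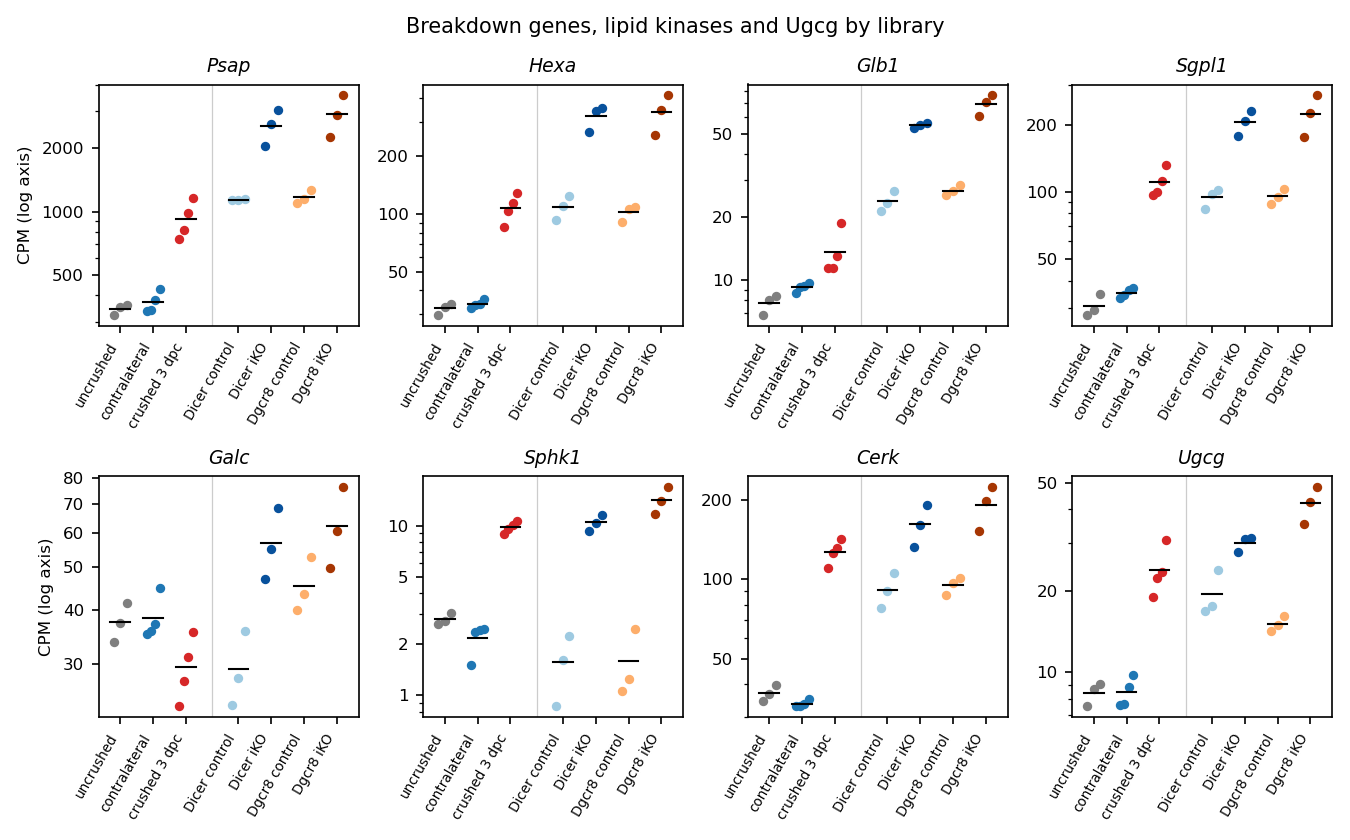
CPM (y axes, log scale) of breakdown genes, kinases and Ugcg in each library (points) of the 7 groups (x axes), with the group mean as a line. Psap, Hexa, Sgpl1 and Sphk1 lie above their controls in crushed, Dicer iKO and Dgcr8 iKO SNs, and Galc is lowest in the crushed group of the crush experiment (mean 29.5 CPM).

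In the adult mutants at 3 mpT, 4 of 12 breakdown genes and Sphk1 were called higher in both lines. Of the 19 synthesis genes tested, 2 were called higher and 2 lower in Dgcr8 iKO, where 13.4% and 6.99% of all genes were. The 4 synthesis genes that passed the adjusted p in Dicer iKO differed by less than 2-fold. In Dicer iKO, 5 of 34 members tested were called higher and 0 lower (background 7.37% and 1.64% of 13045 genes), and 10 and 2 passed the adjusted p alone (background 12.3% and 8.88%). The 12 that passed the adjusted p alone became 5 without Dicer control replicate 2, iKO replicate 2 or iKO replicate 3, and 1 gene was called lower without control replicate 1 (Fa2h) or without iKO replicate 1 (Degs2). In Dgcr8 iKO, 8 of 34 were called higher and 2 lower (background 13.4% and 6.99% of 13252 genes), and 12 and 8 passed the adjusted p alone (background 23.9% and 20.6%). By either limit, the share of members lower in Dgcr8 iKO was near that of all genes. Without Dgcr8 iKO replicate 2, 5 were called lower, with Cers2, Cers4 and Ugt8a added, and 4 were without Dgcr8 control replicate 2 or iKO replicate 1. Without Dgcr8 control replicate 3, 10 were called higher, with Asah2 and Sgms2 added. The same 5 of 34 members were called higher in both lines (Glb1, Hexa, Psap, Sgpl1 and Sphk1), where 6.55% of 12897 genes were. The median log2 fold change over the breakdown genes was 0.32 in Dicer iKO and 0.51 in Dgcr8 iKO, and over the de novo genes -0.30 and -0.42, beside -0.008 and -0.014 over all genes. The 2 lines had separate control groups.

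Psap was at 1130, 1130 and 1150 CPM in Dicer controls and 2040, 2610 and 3020 in Dicer iKO (2.25-fold, 1.17 ± 0.17, adjusted p = 0.00499). In the Dgcr8 line it was at 1150, 1100 and 1270 CPM in controls and 2880, 2250 and 3550 in iKO (2.46-fold, 1.30 ± 0.21, adjusted p = 5e-04). Hexa rose from 124, 110 and 93.2 CPM to 266, 343 and 355 in Dicer iKO (1.56 ± 0.16, adjusted p = 0.00204) and from 109, 91.3 and 106 to 345, 257 and 413 in Dgcr8 iKO (1.73 ± 0.18, adjusted p = 3.27e-05). The ranges of mutants and controls were apart for both genes in both lines.

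Glb1 rose from 26.7, 23.4 and 21.5 CPM to 53.4, 55.2 and 56.3 in Dicer iKO (1.21 ± 0.11, adjusted p = 0.00167) and from 25.4, 28.4 and 26.6 to 71, 60.9 and 76.2 in Dgcr8 iKO (1.37 ± 0.13, adjusted p = 1.67e-05). A further gene, Tmppe, overlaps it on the same strand. Sgpl1 rose from 102, 97.8 and 83.8 CPM to 178, 208 and 230 in Dicer iKO (1.12 ± 0.13, adjusted p = 0.00273) and from 95.1, 87.8 and 103 to 226, 176 and 270 in Dgcr8 iKO (1.23 ± 0.17, adjusted p = 0.000158). Galc was higher in both lines by less than 2-fold (0.96 ± 0.19, adjusted p = 0.0134, and 0.46 ± 0.17, adjusted p = 0.0467), as was Gm2a (0.39 ± 0.09 and 0.55 ± 0.13), while Asah2 was higher in Dgcr8 iKO (0.90 ± 0.17, adjusted p = 0.00129).

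Sphk1 had the largest fold change of the members in both mutants. It was at 0.862, 2.25 and 1.62 CPM in Dicer controls and 9.32, 11.6 and 10.4 in Dicer iKO (6.5-fold, 2.70 ± 0.32, adjusted p = 0.00298). Dgcr8 controls had 1.06, 2.45 and 1.24 CPM and Dgcr8 iKO 11.7, 13.9 and 16.9 (9.07-fold, 3.18 ± 0.30, adjusted p = 1.84e-05). Cerk went from 77.6, 90.7 and 106 CPM to 133, 161 and 192 in Dicer iKO, under 2-fold (0.83 ± 0.17, adjusted p = 0.0146), and from 97.3, 87.6 and 101 to 199, 153 and 225 in Dgcr8 iKO (2.01-fold, 1.01 ± 0.16, adjusted p = 0.000373). The Cerk call in Dgcr8 iKO sits at the 2-fold limit and was lost without Dgcr8 control replicate 2, iKO replicate 1 or iKO replicate 3.

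Among the synthesis genes, Fa2h was called lower in Dgcr8 iKO, from 197, 280 and 171 CPM to 67.7, 107 and 52.4 (2.85-fold, -1.51 ± 0.25, adjusted p = 0.000642). In the Dicer line Fa2h was at 83.6, 127 and 197 CPM in controls and 98.4, 60 and 71.3 in iKO, with overlapping ranges (-0.82 ± 0.31, adjusted p = 0.0998). Without Dicer control replicate 1, Fa2h was called lower there too (-1.08, adjusted p = 0.0194). Degs2 was lower in Dgcr8 iKO, from 7.91, 9.66 and 6.22 CPM to 2.36, 3.53 and 2.8 (-1.43 ± 0.27, adjusted p = 0.00132), and in the Dicer line it was at 6.32, 6.21 and 7.57 CPM in controls and 5.99, 3.8 and 2.35 in iKO (-0.72 ± 0.34, adjusted p = 0.171).

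Other synthesis genes fell by less than 2-fold in Dgcr8 iKO, among them Ugt8a (-0.97 ± 0.24, adjusted p = 0.00758), Cers2 (-0.94 ± 0.17), Cers4 (-0.93 ± 0.17), Sptlc2 (-0.68 ± 0.13), Sgms1 (-0.61 ± 0.15) and Kdsr (-0.42 ± 0.15). In Dicer iKO, Cers4 (-0.54 ± 0.16, adjusted p = 0.048) and Sgms1 (-0.46 ± 0.11, adjusted p = 0.0266) passed the adjusted p. Gal3st1, which fell 7.57-fold after crush, did not pass in either mutant: it was at 51.4 to 87.8 CPM in Dicer controls and 78.1 to 86.9 in iKO (0.27 ± 0.18, adjusted p = 0.333), and at 81 to 123 CPM in Dgcr8 controls and 82.8 to 107 in iKO (-0.08 ± 0.16, adjusted p = 0.731). Sptlc2 was at 340, 334 and 316 CPM in Dgcr8 controls and 215, 217 and 187 in iKO, with the groups apart. The Ugt8a levels of Dgcr8 iKO, at 705, 839 and 399 CPM, all lay below the controls at 1340, 1170 and 1300.

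Ugcg and Cers6 were called higher in Dgcr8 iKO. Ugcg rose from 15, 14.2 and 16.2 CPM to 42.3, 35.2 and 48.2 there (2.76-fold, 1.47 ± 0.15, adjusted p = 3.14e-05) and from 23.8, 17.6 and 16.8 to 27.7, 31.4 and 31 in Dicer iKO (0.63 ± 0.16, adjusted p = 0.029). Cers6 rose from 10.9, 14.4 and 12.7 CPM to 32.7, 27 and 44.2 in Dgcr8 iKO (2.73-fold, 1.45 ± 0.20, adjusted p = 0.000171), and was under 2-fold with limma on TPM (0.94). In the Dicer line Cers6 was at 51.3, 31.3 and 15.7 CPM in controls, a range that held all 3 iKO values of 36.5, 44.2 and 44.2 (0.35 ± 0.36, adjusted p = 0.521). Sgms2 was higher in Dgcr8 iKO by less than 2-fold, at 16.1 to 23.9 CPM against 7.91 to 14.1 in controls (0.94, adjusted p = 0.00635). It was called higher without Dgcr8 control replicate 3 or iKO replicate 3. In the Dicer line the Sgms2 ranges overlapped. Of the ORMDL genes, Ormdl1 passed the adjusted p in Dicer iKO (0.64 ± 0.15, adjusted p = 0.0231), and no ORMDL gene passed in Dgcr8 iKO.

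Whether the lines differed was tested with the interaction of genotype and line over the 12 libraries. No member passed, where 1 gene in each direction (0.00738% of 13552) did, and 6 members had an unadjusted p under 0.05 (Ugcg, Asah2, Sgms2, Cers6, Cers2 and Ormdl1). DESeq2 called 0 members as well, though it called 240 of all genes, and its smallest adjusted p among the members was 0.0535 (Ugcg). With edgeR, too, Ugcg came closest, with an effect larger in Dgcr8 iKO by 0.84 ± 0.22 on the log2 scale (adjusted p = 0.165). Without Dicer control replicate 3, 3 members passed: Cers6 (1.44, adjusted p = 0.027), Sgms2 (1.25, adjusted p = 0.0382) and Ugcg (0.93, adjusted p = 0.0443). Calls made in Dgcr8 iKO and not in Dicer iKO therefore do not show a difference between the lines. Equal effects are not shown either, as this test recovered 36% of 2-fold differences in simulated data, in which all genes had the same relative spread.

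Set side by side, 4 of 34 members were called higher against both crush controls and in both mutants (Hexa, Psap, Sgpl1 and Sphk1), where 5.06% of 12645 genes tested in all 4 comparisons were. They are 4 of the 8 members called higher against both crush controls, and over all genes that share was 33.6%. Cerk, Cers6 and Ugcg were called higher against both crush controls and in Dgcr8 iKO but not in Dicer iKO. With them, 7 of these 8 members were also called higher in Dgcr8 iKO, against 55.9% over all genes. Ormdl1 was called against both crush controls and in neither mutant, though it passed the adjusted p in Dicer iKO. Of the 7 members lower against both crush controls, Fa2h and Degs2 were also called lower in Dgcr8 iKO, against 43.2% over all genes, and Sptlc2, Cers1, Cers4, Ugt8a and Gal3st1 were called in neither mutant. Whether effects differed between the crush and mutant experiments was not tested. Sptlc1, Cers5, Smpd1, Smpd3 and Sphk2 passed neither limit in the crush or mutant comparisons.

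Psap transcripts differ by a short in-frame exon, which is shown because the 2 forms moved differently. The exon has 9 bases, lies at chr10:60297537-60297545 on the plus strand of GRCm38 (exon 8 of 15 in Psap-205), and was read from the reference transcripts. Its bases are in capitals, between flanks that are the same in both forms.
Psap with the exon: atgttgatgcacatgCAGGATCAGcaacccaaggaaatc
Psap without it: atgttgatgcacatgcaacccaaggaaatc

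The form with the exon made up 23.4%, 25.2% and 24.3% of the Psap counts in Dgcr8 controls and 4.15%, 7.39% and 3.82% in Dgcr8 iKO. In the Dicer line it was 12.3%, 18.3% and 22.7% in controls and 11%, 5.14% and 5.64% in iKO. The groups were apart in both lines, with an exact two-sided permutation p = 0.1 each, the smallest that 3 against 3 allows. Psap was picked after the transcript shares of all 36 members had been compared in these same libraries. The gap and the p-values therefore describe a chosen gene and are no independent test. The form without the exon was 3.1-fold higher in Dgcr8 iKO (2750 ± 665 against 889 ± 69.8 CPM, SD), and the form with it was lower (140 ± 23.8 against 285 ± 20.6 CPM). In Dicer iKO the form without it was 2.55-fold higher (2380 ± 523 against 934 ± 52.1 CPM) and the form with it was at 176 ± 45 against 202 ± 61.3 CPM, with overlap. After crush the share was 20.3%, 13%, 14.5% and 11.5%, against 18.8%, 24.3% and 17.8% in uncrushed SNs (exact permutation p = 0.171) and 18.5%, 22.5%, 29.2% and 22.7% in contralateral SNs (exact permutation p = 0.0571, with 0.0286 the smallest possible). Both forms were higher in crushed than in uncrushed SNs, by 1.92-fold and 2.88-fold. RSEM assigns reads to the forms by estimation, and only reads that cross the exon tell them apart. Macrophage marker sums were higher in all 3 conditions in which Psap rose, and their part in the exon shares was not tested.

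**Figure D5:**
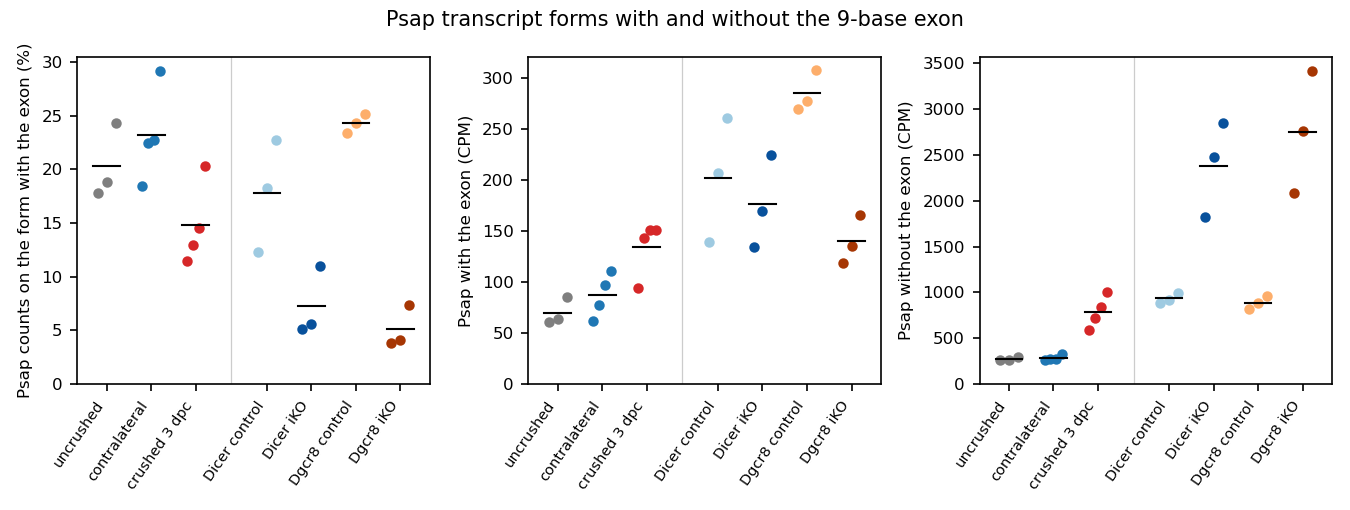
Share of Psap counts assigned to the form with the 9-base exon, and CPM of each form, per library (points) and group (x axes), with the group mean as a line. The Dgcr8 iKO libraries lie between 3.82% and 7.39%, below the controls at 23.4% to 25.2%.

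The study assayed 4 miRNAs. It measured let-7f-5p in adult iKO SNs. It measured miR-10a-5p, miR-30a-5p and miR-181a-5p in SNs of newborn conditional mutants, which are not among the libraries used here. The mature sequences (RefSeq, GRCm38.p6) are shown with the seed in capitals because biogenesis of these miRNAs requires Dgcr8 and Dicer.
let-7f-5p: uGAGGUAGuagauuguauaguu
miR-10a-5p: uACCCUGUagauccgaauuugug
miR-30a-5p: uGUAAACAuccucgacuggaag
miR-181a-5p: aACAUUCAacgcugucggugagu

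A match to any of the 4 seeds (bases 2 to 8) was in the 3′ UTR of 13 of 36 members (36.1%) and of 37.1% of 21024 coding genes. By miRNA, 3 members matched let-7f-5p, 4 miR-10a-5p, 7 miR-30a-5p and 5 miR-181a-5p, against 9.02%, 12.5%, 13.8% and 16.4% of all coding genes. Of the 8 members called higher in a mutant, 3 had a match (37.5%), a share near that of all genes. The 3′ UTRs of these 8 had a median length of 1547 bases, against 960 over all coding genes. Their sites are given with the matched bases in capitals, and no site was tested for function.
Ugcg, let-7f-5p, chr4:59220903-59220930, plus strand: ttcatgctttatgcCTACCTCttgtagt
Cers6, miR-10a-5p, chr2:69109109-69109136, plus strand: ccacgtgagtctaaACAGGGTgaaccag
Cers6, miR-10a-5p, chr2:69113267-69113294, plus strand: caaaagcctgggccACAGGGTgagttac
Psap, miR-181a-5p, chr10:60302267-60302294, plus strand: ggaggggaaacttgTGAATGTaacttgc

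Further genes of the pathway, from lists that do not overlap the members, moved as follows. Of 15 other synthesis and transport genes tested after crush, 4 were called higher against uncrushed SNs (background 15.3%), and 2 against contralateral SNs, a share near the background of 14.6%. None was called lower. Both of the genes called against contralateral SNs act after Ugcg: B4galt5, which makes lactosylceramide (2.79 ± 0.13 and 2.55 ± 0.11), and the ganglioside sialyltransferase St3gal2 (1.27 ± 0.10 and 1.08 ± 0.08). B4galt5 was also higher in Dicer iKO (1.68 ± 0.26, adjusted p = 0.00577) and Dgcr8 iKO (2.06 ± 0.20, adjusted p = 1.75e-05). Of 18 other genes listed under breakdown and tested, 5 were called higher against both crush controls (13.3% of 16556 genes were). Among them were the alpha-galactosidase gene Gla (2.18 ± 0.18 and 2.73 ± 0.16) and Smpdl3a (1.77 ± 0.33 and 1.79 ± 0.31). Smpdl3a is a sphingomyelinase-like gene, and whether its product acts on sphingolipids was not examined. Sgpp2, a sphingosine 1-phosphate phosphatase, was called lower against uncrushed SNs and not against contralateral SNs (-1.20 ± 0.21 and -0.79 ± 0.21).

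Of the transporters and receptors of sphingosine 1-phosphate, 5 were tested after crush, too few to set against the background. S1pr1 was called higher (1.38 ± 0.16 and 1.31 ± 0.14) and Mfsd2b lower against both controls (-1.14 ± 0.32 and -1.05 ± 0.27). Of 15 other lysosomal genes, 7 were called higher against both crush controls (background 13.3%) and none lower. In each mutant 8 were called higher, where the background was 7.37% in Dicer iKO and 13.4% in Dgcr8 iKO. The largest crush changes among them were those of the cathepsins Ctsb (2.68 ± 0.19 and 2.54 ± 0.16) and Ctsd (2.54 ± 0.22 and 2.30 ± 0.19) and the acid lipase Lipa (2.28 ± 0.14 and 1.94 ± 0.12). Macrophages are also rich in these lysosomal genes. The macrophage sums rose in the same 3 conditions, and their part was not tested.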

How the data were processed

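Total RNA of mouse SNs was sequenced in 23 libraries, with TruSeq and Ribo-Zero for the mutants. For the crush experiment the sources differ: the labels give Clontech SMARTer kits, and the study's methods give TruSeq with Ribo-Zero. The authors trimmed reads (Trimmomatic), aligned them to GRCm38 (STAR) and estimated transcript abundance with RSEM. The deposited tables hold expected counts per transcript and TPM per transcript. For each gene the expected counts of its transcripts were added up, and the sum was rounded. The genes, lists and tests were chosen with earlier results of these data known. Each comparison was fitted on its own groups with edgeR 4.0.16 (filterByExpr with a minimum count of 10, TMM, quasi-likelihood test, Benjamini-Hochberg adjustment over all genes tested). R 4.3.3, limma 3.58.1 and DESeq2 1.42.0 served for the alternatives. CPM are TMM-scaled within an experiment. One ribosomal gene, n-R5s193, held 61.4% to 71.8% of the deposited TPM in the crush libraries, so TPM were rescaled to protein-coding genes. SEs are on the log2 scale.

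Members called against both crush controls or in a mutant were described one by one, and the others by range, count or fold change. The fits were tested on simulated data: with 100 genes changed 2-fold among 17362 for the comparison of crushed with uncrushed SNs, 83% were recovered. A further 100 genes were changed 4-fold in the same data. All genes were given the same relative spread between libraries, unlike the real genes, so the recovery need not hold for single members. For 2-fold changes it was 75% in the Dicer iKO comparison and 36% in the interaction of genotype and line. Recovery was counted by adjusted p and direction, without the 2-fold limit of a call. The labels number the replicates without naming animals, so the p-values measure the spread between these samples, and which crushed and contralateral SNs came from 1 animal is not given in the sources used here. No 2 libraries agreed within counting noise. Totals limit low genes, and the floors given cover counting error only. Transcript shares of all 36 members were compared by group mean, and several members had a transcript with a large shift. Of these only Psap, Sphk1, Fa2h and Cerk are described, and only the Psap forms were tested.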

Additional observations from a re-analysis of the deposited data

Results flagged for a closer look

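In each of the 72 sets of 4 libraries (36 genes in crushed and in contralateral SNs), the most distant library was compared with the rest by Dixon's criterion, which chance passes in about 1 of 20 sets. It was passed by 3 sets. Cers1 was at 0.882 CPM in crushed replicate 1 and at 0.366 to 0.407 CPM in the other crushed libraries. Cers3 was at 0.923 CPM in contralateral replicate 4, against 1.1 to 1.13 in the others. Sphk1 was at 1.5 CPM in contralateral replicate 3, against 2.36 to 2.45.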

How the results depend on the processing

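Of 736 values of single genes under the alternatives, 720 kept direction and call, 15 fell below the limit and 1 reversed. Called genes that an alternative did not test were left out of these values. The values therefore understate the calls lost, mainly under the alternatives with stricter filters. With limma on log2(TPM + 1) of the deposited TPM, 5 members were called higher and 4 lower against uncrushed SNs, and 4 and 4 against contralateral SNs; only 20 and 19 members passed its filter. Sptlc2 reversed there, to 0.14 (adjusted p = 0.693), beside a median of 0.72 over all genes. Rescaled to protein-coding TPM, an alternative chosen after seeing the data, 15 members were called in each crush comparison. With 1 library left out, 8 to 8 members were called higher and 7 to 9 lower against uncrushed SNs, and 8 to 8 and 8 to 9 against contralateral SNs. The ranges were 5 to 6 higher and 0 to 1 lower for Dicer iKO, 7 to 10 and 2 to 5 for Dgcr8 iKO, and 0 to 3 positive for the interaction, with 3 without Dicer control replicate 3. No member was called between contralateral and uncrushed SNs under any alternative run. With the number as a replicate block, 15 and 17 members were called after crush, 5 in Dicer iKO (of 640 genes, against 1175 without it), and 10 in Dgcr8 iKO, where Cerk was lost and Ugt8a gained; members at the adjusted p alone in Dicer iKO went from 12 to 7. The deviations of same-numbered libraries correlated between -0.17 and 0.18 over all comparisons. For crushed and contralateral SNs these values were -0.09, 0.14, -0.01 and 0.18, beside -0.25 to 0.13 for libraries with different numbers. So few values cannot decide whether the numbers pair these SNs, and the main fits treat the libraries as unpaired. With at least 10 counts in every library, Sphk1 was not tested in the mutants, nor Cers1 and Degs2 in crushed against uncrushed SNs. Low counts limit Degs2, Cers1, Cers3, Sptlc3 and crushed Fa2h.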

Other observations

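Transcripts of Sphk1 differed in makeup between crushed and control SNs, as RSEM assigned them. Sphk1-208, annotated as a retained intron, held 68.5% ± 13.4 (SD, n = 3) of Sphk1 counts in uncrushed, 71.7% ± 18.7 (n = 4) in contralateral and 21% ± 5.4 (n = 4) in crushed SNs, on 46, 66 and 94 counts in all. The coding transcript Sphk1-204 had 0 counts in uncrushed SNs, 2 in the contralateral and 162 in the crushed SNs, where it held 22.7% to 55.5% of a library's Sphk1 counts. In the mutants Sphk1-204 had 111 counts in Dgcr8 iKO and 0 in its controls. In the Dicer line its share was 15% ± 17.6 in iKO (31 counts) and 27.2% ± 47.2 in controls (5 counts), which overlapped. There, Sphk1-208 held 26.3% ± 14 (57 counts) and 15.6% ± 14.2 (7 counts), the opposite order to crush. In the Dgcr8 line Sphk1-208 held 19.7% ± 3.8 in iKO (78 counts) and 40.1% ± 13.9 in controls (16 counts), the same order as crush. None of these shares was tested. The coding transcript of Fa2h, Fa2h-201, held 70.1% to 82.6% of Fa2h counts in uncrushed and 76.1% to 83.4% in contralateral SNs, and ranged from 0% to 85% in crushed SNs. Cerk-202, a retained-intron transcript, held 22.7% ± 4.8 of Cerk counts in crushed SNs, against 33.4% ± 3.2 in uncrushed and 40.1% ± 9.8 in contralateral SNs.

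Markers of further cell types moved as follows. The 6 T cell markers summed to 11.2 to 27.1 CPM in Dicer iKO against 0.676 to 2.44 in controls, and to 17.5 to 25.5 CPM in Dgcr8 iKO against 0.354 to 0.725. The 5 neutrophil markers summed to 10.4 to 23.1 CPM in crushed SNs, against 0.376 to 1.26 in uncrushed and 0.283 to 0.702 in contralateral SNs. Of the 6 fibroblast markers, 4 were called higher in Dgcr8 iKO and 2 in Dicer iKO. Of the 6 endothelial markers, 3 were called higher against each crush control, none was called in Dicer iKO and 1 was lower in Dgcr8 iKO. The 5 adipocyte markers summed to at most 9.14 CPM in the crush experiment, but to 0 to 80.9 CPM in Dicer controls and 0 to 63.6 CPM in Dgcr8 iKO. The 5 skeletal muscle and 4 keratinocyte markers summed to at most 17.8 and 4.61 CPM in any library. Of the 5 markers of any SC, 1 was called lower against uncrushed and 2 against contralateral SNs, none in Dicer iKO and 1 lower in Dgcr8 iKO.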
